A study of Mus musculus with 6 samples.

Results

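Histone genes were followed in the total RNA of BMDM, macrophages derived from mouse bone marrow. They were the rows of the deposited gene table whose symbol begins like a histone gene name (Hist1h to Hist4h, H1f with a number, H2ac, H2bc, H3c, H4c, H2az, H2ax or H3f3) and is not marked as a pseudogene with "-ps". There were 77 such rows among 55401. Of these, 66 were replication-dependent genes, 10 were variant genes and 1 was an antisense RNA, H3f3aos. The study had 6 libraries of these cells, grown for 7 days in medium with L929 culture supernatant, a source of the macrophage growth factor CSF1. All 6 received 5 µM L-OHP, the platinum drug oxaliplatin, for 12 h. In 3 libraries (L-OHP) nothing else was given, and in the other 3 (L-OHP+FUC) 250 µg/ml fucoidan, a sulfated polysaccharide from brown seaweed, was given for 12 h beforehand. There was no library without L-OHP. The sources used here give no strain, age or number of animals behind each library, so the p-values measure the spread between these libraries, which may be technical.

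Histones H2A, H2B, H3 and H4 form the core around which DNA is wound, and the linker histone H1 sits where the DNA enters and leaves it. The replication-dependent genes lie in clusters, are transcribed mainly while DNA is copied, and make mRNA that ends in a stem-loop in place of a poly(A) tail. Variant genes such as H3f3a and H3f3b lie elsewhere in the genome, make polyadenylated mRNA and supply histones outside S phase. Because ribosomal RNA was removed with probes and cDNA was primed at random, RNA with and without a tail could enter these libraries, and macrophages grown with CSF1 can still divide.

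The stem-loop is shown first, since it marks the mRNA kind. The search took the bases after the stop codon of annotated transcripts (GENCODE M21, mm10). For members it took every coding transcript, and for other genes only the longest transcript, where that was coding. It asked for 6 bases GGNNNT, a loop of 4 bases beginning TT, and 6 bases that pair with the first 6. Such a 16-base run was found in 41 of 64 protein-coding replication-dependent members and in 1 of 9 variant members. Some members, such as H4c12 and H2bc15, are annotated with no bases after the stop codon and could not match. A missing match therefore does not show that a gene lacks the stem-loop. The run was found in 18 of 19277 other protein-coding genes, or 0.0934%, in this narrower search of 1 transcript per gene. The forms carried by 4 members described here are printed 5′ to 3′ as DNA, with the paired arms in capitals and the loop in lower case.
H1f2: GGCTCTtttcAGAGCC
H2bc8: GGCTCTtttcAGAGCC
H4c9: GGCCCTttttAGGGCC
H2ax: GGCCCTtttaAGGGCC
The form of H1f2 and H2bc8 was the commonest, carried by 24 members. That of H4c9 was carried by 2 members, and that of H2ax by no other.

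Most histone genes were at or near 0. Levels are given as FPKM, fragments per kilobase of transcript scaled to the library's total, which is a scale per length. A gene was tested when it reached 0.5 FPKM in at least 3 of the 6 libraries, which 23 members did. Among replication-dependent members these were 1 of 6 H1 genes, 1 of 19 H2A, 8 of 17 H2B, 3 of 12 H3 and 2 of 12 H4 genes. Of the 51 that were not tested, 9 were listed at 0 in every library and 9 were above 0 in every library. The median of their mean levels was 0.0411 FPKM. H2ac18 was nearest to the filter, with 2 libraries at 0.5 FPKM or more and 0 in the other 4. H4c8, with 1 such library, had 0.0968, 0.399 and 0.184 FPKM with L-OHP and 1.30, 0.136 and 0.489 with L-OHP+FUC. H3c4, just inside it with 3, had 0.367, 0.640 and 0.599 FPKM against 0.490, 0.568 and 0.346. The groups overlapped in all 3 of these genes.

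**Figure D1:**
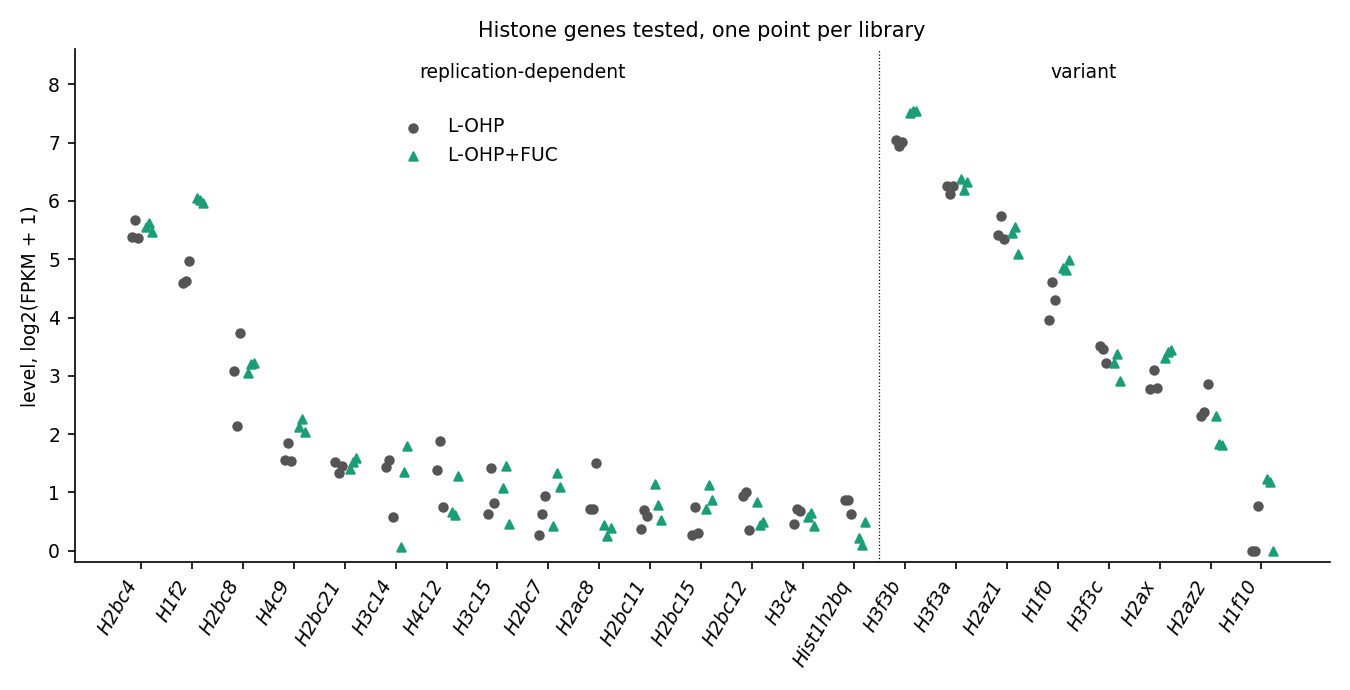
Level of each tested histone gene as log2(FPKM + 1), 1 point per library, with L-OHP as circles and L-OHP+FUC as triangles, and replication-dependent genes left of the dotted line. The triangles of H1f2 and H3f3b stand clear above the circles, and most replication-dependent genes lie near the bottom.

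Among the 15 tested replication-dependent members, 2 were higher and 1 was lower in L-OHP+FUC than in L-OHP, and 12 did not pass the test (limma on log2(FPKM + 1), adjusted over all 12084 tested genes, threshold 0.05). The 1 called lower, Hist1h2bq, entered the test only through the group where it was high, so this count supports no direction. Over all tested genes, 7.67% were called higher and 19.3% lower, 27.0% in all. The median log2 fold change was 0.06 over these 15 members and -0.10 over all tested genes. Groups did not overlap in 2 members that were higher and 2 that were lower, against 16.1% higher and 30.9% lower over all tested genes. The 2 lower, Hist1h2bq and H2ac8, reached 0.5 FPKM in every L-OHP library and in no L-OHP+FUC library. Their groups could therefore not overlap, and this count supports no direction either. Among the 8 tested variant members, 3 were higher, none was lower at the adjusted threshold in limma (1 at an unadjusted p under 0.05) and 5 did not pass. The median log2 fold change of the 8 was 0.30, and groups did not overlap in 3 that were higher and 1 that was lower. In bulk RNA, fewer cells making a transcript and less of it per cell cannot be told apart.

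The split of all calls depends on scaling. There were 927 genes called higher and 2335 lower as deposited, 1581 and 1680 after median ratio rescaling, and 1565 and 1359 after quantile normalization. These scalings moved the median of all genes from -0.10 to -0.01 and 0.03. Under both, 3 variant members were called higher. Replication-dependent calls were 2 higher and 1 lower under the first and 3 higher and 0 lower under the second. At an unadjusted p under 0.05 and without rescaling, limma gave 3 higher and 2 lower. The 2 lower were Hist1h2bq and H2ac8, which entered the test through L-OHP alone. Of the 3 higher, H2bc15 would have met the filter through L-OHP+FUC alone.

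**Figure D2:**
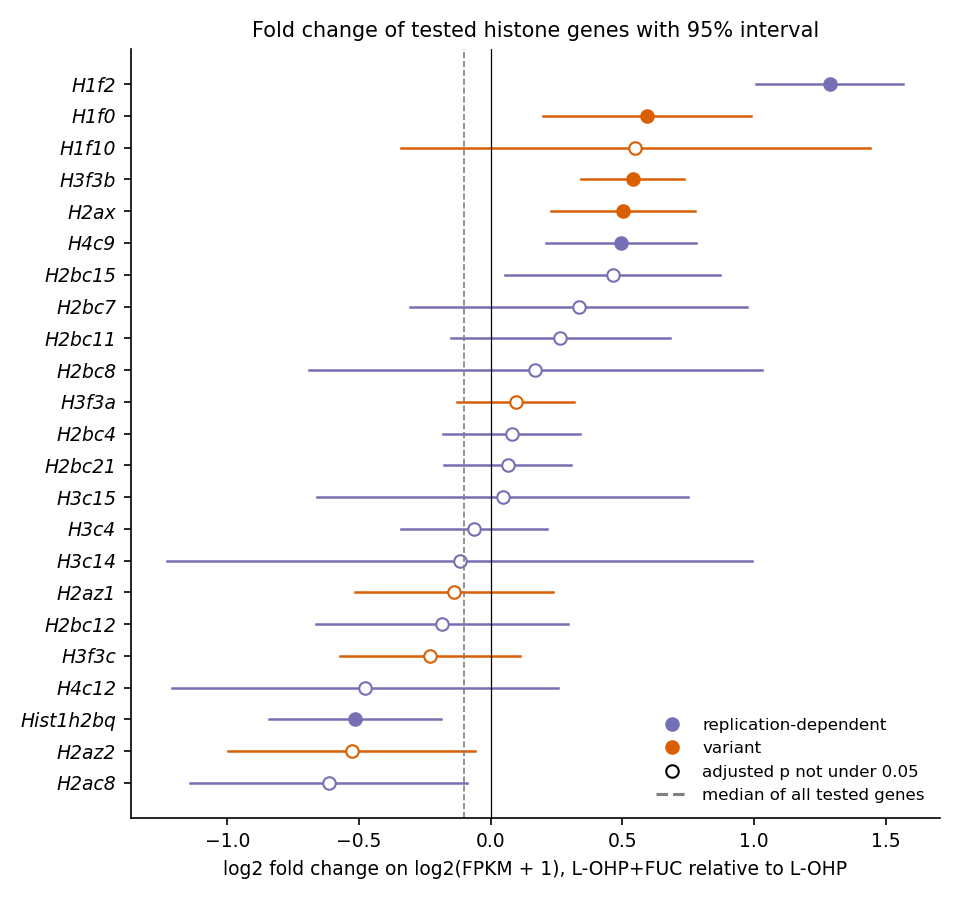
Log2 fold change of each tested histone gene on log2(FPKM + 1), L-OHP+FUC relative to L-OHP, with the limma 95% interval, filled where the adjusted p is under 0.05. H1f2 lies farthest to the right at 1.29, and the intervals of most replication-dependent genes cross 0.

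H1f2 (Hist1h1c in the annotation) encodes the linker histone H1.2 and lies on chromosome 13 at 23738808 to 23740367 (mm10, plus strand). It measured 23.0, 23.8 and 30.1 FPKM with L-OHP and 65.3, 64.0 and 61.4 with L-OHP+FUC. All 3 L-OHP+FUC libraries were above all 3 L-OHP libraries, and L-OHP library 3 was the highest of its group. The means were 25.6 ± 3.93 and 63.5 ± 1.97 FPKM (SD, n = 3 each). H1f2 rose by 1.29 on the log2 scale (SE 0.12, 95% interval 1.01 to 1.56, limma adjusted p = 0.00339). Its fold change on log2(FPKM + 1), a scale that understates changes of low genes, ranked 36 of the 12084 tested genes. It passed in all 15 alternative fits, with log2 fold changes of 1.20 to 1.41. In the authors' deposited table H1f2 had a fold of 2.48, q = 1.03e-13, and was marked significant. Of its 50-base stretches, 8.54% also occur in transcripts of other genes, so few of its fragments could be shared. Its annotated transcript runs 840 bases past the stem-loop printed above.

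The other replication-dependent H1 genes stayed under the filter. Their sum with H1f2 was 23.0, 23.9 and 30.3 FPKM with L-OHP and 65.6, 64.1 and 61.9 with L-OHP+FUC, so H1f2 made up nearly all of it. H1f3 was marked significant in the authors' deposited table, with a fold of 3.90 and q = 0.00107. Its values were 0.0336, 0.0302 and 0.0653 FPKM with L-OHP and 0.157, 0.156 and 0.190 with L-OHP+FUC. The groups did not overlap, but every value was far under 0.5 FPKM and the gene was not tested here.

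The 250 bases before the RefSeq transcription start of H1f2 and of H3f3b are printed because these 2 genes passed in every alternative fit (GRCm38.p6, each on its own strand). Capitals mark the motifs searched on both strands: the H1 box AAACACAA, the octamer ATTTGCAT, CCAAT and TATAAA. The window of H1f2 is chr13:23738557-23738806 on the plus strand. The window of H3f3b is chr11:116024505-116024754 on the minus strand, inside the span that GENCODE gives the gene.
H1f2: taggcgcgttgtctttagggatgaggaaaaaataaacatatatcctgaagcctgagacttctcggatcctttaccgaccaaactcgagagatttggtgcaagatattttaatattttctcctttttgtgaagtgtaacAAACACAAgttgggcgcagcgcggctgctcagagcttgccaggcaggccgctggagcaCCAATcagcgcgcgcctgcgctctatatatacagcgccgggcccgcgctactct
H3f3b: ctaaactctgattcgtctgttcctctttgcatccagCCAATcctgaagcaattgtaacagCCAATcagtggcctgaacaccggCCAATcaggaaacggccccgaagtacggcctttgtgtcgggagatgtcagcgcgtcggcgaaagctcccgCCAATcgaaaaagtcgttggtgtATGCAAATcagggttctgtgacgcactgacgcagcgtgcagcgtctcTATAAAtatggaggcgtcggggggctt
H1f2 held 1 H1 box and 1 CCAAT, and H3f3b held 4 CCAAT, 1 octamer (as its reverse complement) and 1 TATAAA.

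RefSeq promoters were matched to 60 members. In windows of 300 bases, from 250 before to 50 after the start, the H1 box was in 4 of 6 replication-dependent H1 promoters, against 1.93% of all 32851 promoters. The octamer was in 7 of 13 H2B and 6 of 14 H2A promoters, against 1.74% of all. Windows of neighbouring H2A and H2B genes on opposite strands can overlap, so the same octamer or CCAAT can count in both classes. Those of H2ac8 (chr13:23571171-23571470) and H2bc8 (chr13:23571150-23571449) do so. H2bc6 entered the H2B count with each of its RefSeq promoters. CCAAT was in every promoter matched for replication-dependent H1, H2A, H2B and H3 genes and in 3 of 9 H4 promoters, against 37.4% of all. A match is a run of letters and not a shown binding site.

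H2bc4 (Hist1h2bc), an H2B gene on chromosome 13 at 23684199 to 23692908, was the most abundant core histone gene of the clusters. It measured 40.5, 49.8 and 40.4 FPKM with L-OHP and 46.0, 48.5 and 43.3 with L-OHP+FUC, and the groups overlapped. Its log2 fold change was 0.08 (SE 0.11, 95% interval -0.18 to 0.34, limma adjusted p = 0.620). The annotated mRNA has 2 exons and 742 bases after the stop codon, with no stem-loop match. In its 50-base stretches, 30.6% also occur elsewhere, most often in H2bc8.

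H2bc8 (Hist1h2bg), another H2B gene on chromosome 13, carries the stem-loop of H1f2. It measured 7.49, 3.43 and 12.3 FPKM with L-OHP and 7.25, 8.23 and 8.37 with L-OHP+FUC. The 3 L-OHP libraries spread on both sides of all L-OHP+FUC libraries. Its log2 fold change was 0.17 (adjusted p = 0.754), and -0.25 without L-OHP library 2. H2bc21 (Hist2h2be), an H2B gene of the chromosome 3 cluster, had log2 fold change 0.06 (adjusted p = 0.663) over levels of 1.53 to 2.01 FPKM. Its mRNA has 2192 bases after the stop codon and no stem-loop match. None of its 50-base stretches occurs in another gene.

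H4c9 (Hist1h4i), an H4 gene on chromosome 13 at 22040636 to 22041362, measured 1.93, 2.59 and 1.90 FPKM with L-OHP and 3.34, 3.77 and 3.12 with L-OHP+FUC. The groups did not overlap. H4c9 rose by 0.49 on the log2 scale (SE 0.12, 95% interval 0.21 to 0.78, limma adjusted p = 0.0265), from 2.14 ± 0.387 to 3.41 ± 0.330 FPKM (SD, n = 3 each). The call held in 9 of 14 alternative fits; the adjusted p was 0.0875 and 0.0708 without L-OHP library 1 or 3, 0.0782 and 0.0955 without L-OHP+FUC library 1 or 2, and 0.0665 with no filter. In the authors' deposited table its q was 0.140. The other tested H4 gene, H4c12, measured 1.60, 2.68 and 0.681 FPKM against 0.592, 0.538 and 1.43, with overlapping groups (log2 fold change -0.48, adjusted p = 0.281).

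Hist1h2bq, an H2B gene on chromosome 13 at 21806612 to 21810197, was the 1 replication-dependent member called lower. It measured 0.819, 0.824 and 0.541 FPKM with L-OHP and 0.162, 0.0728 and 0.408 with L-OHP+FUC, with no overlap. The gene reached 0.5 FPKM in the L-OHP libraries only, so it was tested because it was high there. Neither its p-value nor the lack of overlap is independent evidence of a difference. Its log2 fold change was -0.51 (SE 0.14, 95% interval -0.84 to -0.19, limma adjusted p = 0.0353). The call held in 4 of 14 alternative fits, with adjusted p from 0.0262 to 0.163, and was lost in every fit leaving out 1 library except those without L-OHP library 3 or L-OHP+FUC library 3. Of its 50-base stretches, 97.3% also occur in Hist1h2br, so its reads cannot be assigned with certainty. H2ac8, the 1 tested H2A gene of the clusters, likewise reached 0.5 FPKM with L-OHP only. It measured 0.645, 0.635 and 1.83 FPKM against 0.353, 0.186 and 0.318 (log2 fold change -0.62, adjusted p = 0.0811). Entering the test in this way, its groups could not overlap, and it did not pass.

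Of the 3 tested H3 genes of the clusters, H3c14 and H3c15 varied widely within groups. H3c14 measured 1.70, 1.94 and 0.499 FPKM with L-OHP and 0.0480, 1.56 and 2.48 with L-OHP+FUC (log2 fold change -0.12, adjusted p = 0.871). All its 50-base stretches also occur in the overlapping transcript Gm20634. H3c15 and H3c4 had log2 fold changes of 0.05 (SE 0.30) and -0.06 (SE 0.12), both with overlapping groups. H2bc15 measured 0.208, 0.683 and 0.232 FPKM against 0.647, 1.19 and 0.818, and missed the threshold (log2 fold change 0.46, adjusted p = 0.0882), though it passed in 5 of 14 alternative fits. It reached 0.5 FPKM in all 3 L-OHP+FUC libraries and in 1 L-OHP library. It would have met the filter through the higher group alone, so these passes are no independent evidence of a rise. Of its 50-base stretches, 86.4% also occur in other genes, most often in H2bc12. The remaining H2B genes H2bc7, H2bc11 and H2bc12 had log2 fold changes of 0.33, 0.26 and -0.18, with overlapping groups and adjusted p of 0.384, 0.296 and 0.523.

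The summed level of all 66 replication-dependent members was 85.9, 96.6 and 99.3 FPKM with L-OHP and 144, 138 and 130 with L-OHP+FUC. Without H1f2 it was 62.9, 72.9 and 69.2 FPKM against 79.0, 73.5 and 68.6. The totals stood apart between groups, and the totals without H1f2 overlapped. H1f2, H2bc4 and H2bc8 together held 79.7% to 87.8% of replication-dependent FPKM in every library. The high H2A sum of L-OHP+FUC library 1, 12.6 FPKM, came mostly from H2ac18, which measured 11.3 FPKM there, 2.96 in L-OHP library 3 and 0 in the other 4 libraries.

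**Figure D3:**
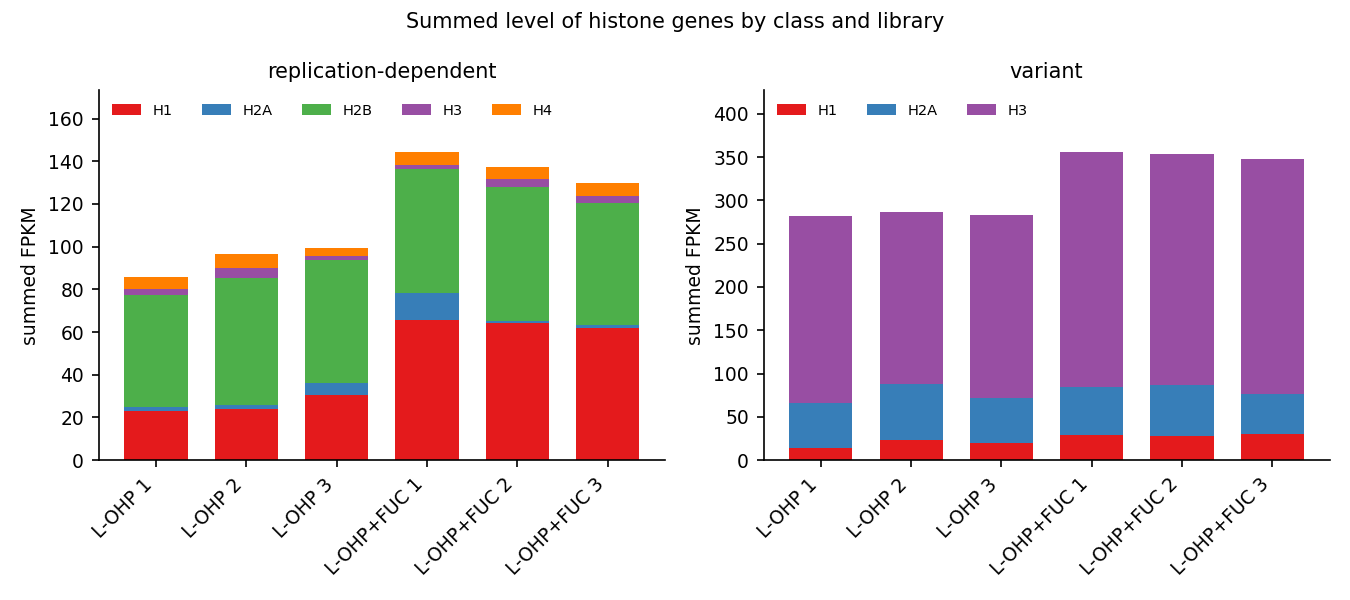
Summed FPKM of replication-dependent genes (left) and variant genes (right) in each library, stacked by histone class, with separate axes from 0. The H1 part of the left bars goes from 23.0 to 30.3 FPKM with L-OHP to 61.9 to 65.6 with L-OHP+FUC, while the H2B part stays between 52.7 and 63.0.

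H3f3b and H3f3a encode the same H3.3 protein, the replacement H3 placed in chromatin outside replication, and were the most abundant members. H3f3b, on chromosome 11 at 116021912 to 116027962, measured 130, 121 and 128 FPKM with L-OHP and 180, 186 and 186 with L-OHP+FUC. Every L-OHP+FUC library was above every L-OHP library. H3f3b rose by 0.54 on the log2 scale (SE 0.08, 95% interval 0.34 to 0.73, limma adjusted p = 0.00861), and passed in all 15 alternative fits. H3f3a, on chromosome 1 at 180800832 to 180813943, measured 75.0, 68.2 and 75.0 FPKM against 82.4, 71.5 and 79.5. The groups overlapped, and the log2 fold change was 0.09 (SE 0.09, 95% interval -0.13 to 0.32, adjusted p = 0.480).

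The ratio of H3f3b to H3f3a was 1.74, 1.78 and 1.70 with L-OHP and 2.18, 2.60 and 2.34 with L-OHP+FUC, with no overlap. Multiplying a whole library by 1 factor leaves this ratio as it is; the ratio was not computed after quantile normalization or GC and length correction, and the difference between the 2 genes was not tested. H3f3a and H3f3b together held 92.9% to 95.2% of all H3 FPKM with L-OHP and 95.1% to 96.4% with L-OHP+FUC, ranges that overlap. That total also counts the row H3f3c, which made up most of the remainder. The H3 genes of the clusters summed to 2.78, 4.50 and 1.86 FPKM with L-OHP and 1.77, 3.88 and 3.36 with L-OHP+FUC. The row H3f3c is annotated as a processed pseudogene, and 73.8% of its 50-base stretches occur in other genes, mostly H3f3a. It measured 10.4, 9.97 and 8.33 FPKM against 8.29, 9.33 and 6.49 (log2 fold change -0.23, SE 0.14, 95% interval -0.57 to 0.11, adjusted p = 0.266), and was 0.06 after correction for GC content and length.

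H1f0 encodes H1.0, the linker histone of resting and differentiated cells, and lies on chromosome 15 at 79028450 to 79030504. It measured 14.5, 23.4 and 18.8 FPKM with L-OHP and 28.0, 27.1 and 30.6 with L-OHP+FUC, with no overlap and the wider spread in L-OHP. H1f0 rose by 0.59 on the log2 scale (SE 0.17, 95% interval 0.20 to 0.99, limma adjusted p = 0.0398). The call held in 6 of 15 alternative fits, with the fold change between 0.43 and 0.75. It was lost after GC and length correction (adjusted p = 0.0599), with the replicate block (0.0589), with both (0.0844), with no filter (0.0901) and on leaving out any library other than L-OHP library 2 (0.0816 to 0.104). H1f2 made up 50.2% to 61.3% of all H1 FPKM with L-OHP and 66.3% to 69.2% with L-OHP+FUC. The other tested variant H1 gene, H1f10, was listed at 0 in 3 libraries and measured 0.710 FPKM in L-OHP library 3, 1.35 in L-OHP+FUC library 1 and 1.28 in library 2 (log2 fold change 0.55, SE 0.38, 95% interval -0.34 to 1.44, adjusted p = 0.308).

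H2ax encodes H2A.X, whose phosphorylated form marks DNA breaks, and its gene is known to make both stem-loop and polyadenylated mRNA. It lies on chromosome 9 at 44334694 to 44336077, and its annotated transcript continues 822 bases past the stem-loop printed above. It measured 5.82, 7.58 and 5.90 FPKM with L-OHP and 8.91, 9.67 and 9.85 with L-OHP+FUC. The groups did not overlap. H2ax rose by 0.50 on the log2 scale (SE 0.12, 95% interval 0.23 to 0.78, limma adjusted p = 0.0223), from 6.43 ± 0.996 to 9.48 ± 0.501 FPKM (SD, n = 3 each). The call held in 9 of 15 alternative fits and was lost on leaving out any library other than L-OHP library 2 (adjusted p 0.0563 to 0.0807) and after GC and length correction with the replicate block (0.0678).

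The H2A.Z genes, whose product replaces H2A near transcription starts, did not pass. H2az1 measured 41.5, 52.3 and 39.9 FPKM against 42.7, 45.8 and 32.9, with overlapping groups (log2 fold change -0.14, SE 0.16, 95% interval -0.52 to 0.24, adjusted p = 0.538) and 0.03 after GC and length correction. H2az2 measured 3.99, 4.18 and 6.25 FPKM against 3.99, 2.56 and 2.52, where the highest L-OHP+FUC value lay just under the lowest L-OHP value (log2 fold change -0.53, SE 0.20, 95% interval -0.998 to -0.0584, adjusted p = 0.0894). Of the authors' q-values for the 23 tested members, 5 were under 0.05 in the authors' deposited table, those of H1f2, Hist1h2bq, H3f3b, H1f0 and H2ax. Over the 12084 tested genes, 22.9% had such a q in the authors' deposited table. Of the 5 members, H1f2 and Hist1h2bq were marked significant there, and H3f3b, H1f0 and H2ax were not. The authors' log2 folds were 1.31 and -1.77 for those marked, and 0.54, 0.60 and 0.56 for those not marked.

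The level of a replication-dependent gene could be set beside its annotated 3′ end. Of the 9 protein-coding members with a mean of at least 1 FPKM over the 6 libraries, 8 had 100 or more annotated bases after the stop codon. Of the 55 with a lower mean, 20 did. Among tested members the median was 376 bases and among the others 89 bases. The stem-loop was found in 10 of 15 tested and 31 of 49 other members, and in 7 and 12 of these the annotated transcript went on for at least 100 bases past it. Members annotated with no bases after the stop codon, H4c12 and H2bc15 among them, could not show the stem-loop. This is a description across genes of the same libraries. Transcript length also enters FPKM itself.

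**Figure D4:**
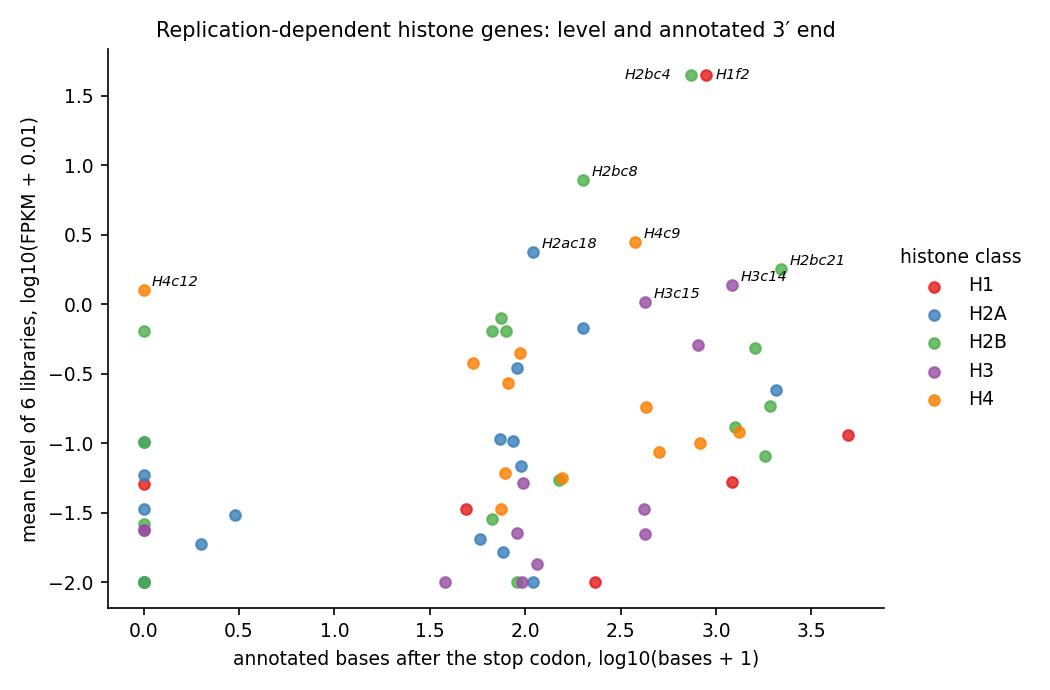
Mean level over the 6 libraries, log10(FPKM + 0.01), of each protein-coding replication-dependent gene against its annotated bases after the stop codon, log10(bases + 1), coloured by histone class. H2bc4 and H1f2 stand highest, with 742 and 880 bases after the stop codon, and H4c12, annotated with none, is the 1 labelled gene at the left edge.

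Genes that act on histone mRNA were read from a list of 30 genes of transcription, 3′ end processing and decay, of which 28 were tested. Of these, 1 was higher and 8 were lower, where 7.67% of all tested genes were higher and 19.3% lower. A further 19 did not pass, and the median log2 fold change was -0.14 against -0.10 over all tested genes. The protein of Slbp binds the stem-loop. Slbp measured 2.75, 2.59 and 3.40 FPKM with L-OHP and 2.15, 2.36 and 2.56 with L-OHP+FUC (log2 fold change -0.22, adjusted p = 0.184). The groups did not overlap, yet Slbp did not pass the test. Npat, a coactivator of histone gene transcription, measured 2.81, 2.50 and 3.82 FPKM against 0.829, 1.46 and 2.09. It fell by 0.74 on the log2 scale (SE 0.21, limma adjusted p = 0.0440), but the adjusted p was 0.121 after GC and length correction and 0.0977 to 0.113 without L-OHP library 1 or 3 or L-OHP+FUC library 1 or 2. Casp8ap2, also known as FLASH and a partner of Npat at histone genes, fell by 1.23 (SE 0.16, limma adjusted p = 0.00639). Its levels were 3.11, 2.29 and 3.40 FPKM with L-OHP and 0.406, 0.682 and 0.949 with L-OHP+FUC, with no overlap. Cdk9, a kinase of transcription elongation, fell by 0.51, the uridylyl transferase gene Tut4 by 1.04 and the cap-binding subunit gene Ncbp2 by 0.68 on the log2 scale.

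Of 34 genes for histone chaperones and transport, all tested, 1 was higher and 10 were lower. Over all tested genes, 7.67% were higher and 19.3% lower. The median log2 fold change was -0.05, against -0.10 over all tested genes. The 4 with the smallest p were lower. Atrx, which with Daxx places H3.3, fell by 1.44 (limma adjusted p = 0.0104) from 4.49 ± 0.826 to 1.08 ± 0.662 FPKM (SD, n = 3 each). Dek, a chromatin protein that handles H3.3, fell by 1.23, Ubn2, of the HIRA complex, by 0.83, and Supt16, of the FACT complex, by 0.92 on the log2 scale. After GC and length correction the adjusted p of Ubn2 was 0.0690. Ipo4, an importin that carries H3 and H4, was the 1 that rose, by 0.68 (limma adjusted p = 0.0231).

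Of 41 S phase genes, 33 were tested. None was higher at the adjusted threshold in limma (2 at an unadjusted p under 0.05) and 2 were lower. Over all tested genes, 7.67% were higher and 19.3% lower. The median log2 fold change was -0.13, against -0.10 over all tested genes. Mki67, a marker of cycling cells, measured 3.53, 3.76 and 2.81 FPKM with L-OHP and 0.146, 0.657 and 0.618 with L-OHP+FUC. It fell by 1.58 on the log2 scale (SE 0.17, limma adjusted p = 0.00432), with no overlap. Dut, which makes the precursor of thymidine nucleotides, fell by 0.38 (adjusted p = 0.0468), a call lost on leaving out any library other than L-OHP library 2 (0.0900 to 0.137). Pcna, the clamp of DNA polymerases, measured 82.6, 80.2 and 74.4 FPKM against 71.9, 76.6 and 70.7 (log2 fold change -0.11, adjusted p = 0.357). Pcna had log2 fold changes of 0.01 and 0.04 after median ratio rescaling and after GC and length correction.

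Of 11 histone variant and sperm nuclear protein genes outside the members, 3 were tested and none passed in limma (0 at an unadjusted p under 0.05). Macroh2a1 and Macroh2a2, which encode H2A with a large added domain, had log2 fold changes of 0.02 and -0.00, and H2aj had -0.50 (adjusted p = 0.167). Cenpa, the H3 of centromeres, was under the filter, with 0.475, 0.302 and 0.633 FPKM with L-OHP and 0.181, 0.167 and 0.174 with L-OHP+FUC.

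All 10 macrophage markers were tested, and their summed level, most of it Lyz2, was 12701 to 18055 FPKM with L-OHP and 13619 to 14601 with L-OHP+FUC. Csf1r was higher, by 0.47 on the log2 scale, and Aif1 fell by 1.26, Mertk by 0.74 and Fcgr1 by 0.69. Of 9 neutrophil markers 2 were tested; their sum was 3.79 to 4.26 FPKM against 5.70 to 6.56, with S100a8 higher by 0.54 on the log2 scale and Ly6g and Retnlg at 0 throughout. Of 6 fibroblast or stroma markers 4 were tested and none passed in limma (0 at an unadjusted p under 0.05), with sums of 4.84 to 11.8 FPKM against 7.09 to 7.52. Of 5 B cell markers only Cd79b was tested, and it reached 0.5 FPKM with L-OHP alone (0.804, 0.772 and 1.03 FPKM against 0.483, 0.178 and 0.290), so its call is conditioned on the filter. Cd79a, untested, measured 0.463, 0.288 and 0.310 FPKM against 0.629, 0.809 and 0.305, and the sums of the 5 were 1.22 to 1.42 FPKM against 0.629 to 1.27. No marker of T or NK cells (sums 0 to 0.0754 and 0.147 to 0.356 FPKM), dendritic cells (0.0985 to 0.215 and 0.0986 to 0.232), mast cells or basophils (0.119 to 0.365 and 0.136 to 0.423) or erythroid cells (0.152 to 0.408 and 0.510 to 1.10) reached the filter. The part of these differences in the histone results was not tested. The table gives no depth. Steps between low values implied 15.8 to 18.8 M (mega) fragments per library, an uncertain estimate, since only 21.0% to 37.5% of low values were whole reads at it. Correlations between libraries were 0.968 to 0.981 within L-OHP, 0.983 to 0.988 within L-OHP+FUC and 0.950 to 0.965 between groups.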

How the data were processed

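Total RNA was depleted of ribosomal RNA and reverse transcribed from random primers, per the labels' protocols. The submitters' processing notes name HISAT2, StringTie, DESeq2, limma, bcl2fastq 2.0 and mm10 without their roles; the sources used here do not say how reads were counted or whether strand was used. The authors' values were FPKM, per the file headers; their 0.0001 stands for 0 and was read as 0. The authors also deposited, per the file headers, each gene's fold (the ratio of mean FPKM, L-OHP+FUC over L-OHP), the log2 of that fold, and p-value and q-value. The values were whole reads within 0.03 for 21.0% to 37.5% of low genes, so no counts were recovered and no counting interval or count test was used.

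Groups were taken from sample titles. In R 4.3.3, limma 3.58.1 compared the groups two-sided on log2(FPKM + 1), which understates changes of low genes, by moderated variance with a trend on level and no covariate. A gene entered at 0.5 FPKM or more in 3 or more libraries, and p-values were adjusted by Benjamini-Hochberg over the 12084 genes that did. The script was tested on simulated data. No pair of libraries shared more than 13 identical values. Alternative fits were 15: a pseudocount of 0.1, all genes unfiltered, only genes averaging 5 FPKM, rescaling by median ratios, quantile normalization, a replicate block, no trend, correction for GC content and length (loess, span 0.3) with and without the block, and each library left out. A gene under the mean of 5 has 14. Gene names and coordinates came from GENCODE M21, matched by gene ID for 99.5% of rows, and promoters from RefSeq. The members and lists were chosen with earlier results of these data known. Named were all tested members, with full statistics for variants, called members without overlap and the most abundant of each class, and up to 4 called genes of smallest p in each related list beside a few fixed ones.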

Additional observations from a re-analysis of the deposited data

How the results depend on the processing

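H1f2 and H3f3b kept their call in all 15 alternative fits. The 1 replication-dependent member called lower became 0 with pseudocount 0.1, with no filter, after quantile normalization and with the replicate block. It also became 0 after GC and length correction with and without the block, and at a threshold of 0.01. It was 0 with a mean of at least 5 FPKM as well, but Hist1h2bq (mean 0.471 FPKM) was not tested there. Npat, Casp8ap2, Tut4 and Mki67 averaged under 5 FPKM too, so their calls could not be kept in that fit. The count of lower calls became 2 at a threshold of 0.1, with H2ac8 added, which like Hist1h2bq entered the test through L-OHP alone. At that threshold H2bc15 joined those called higher (limma adjusted p = 0.0882), but would have met the filter through L-OHP+FUC alone. The lower calls were 0 to 1 when 1 library was left out (1 without library 3 of either group). The 2 called higher became 1 with a mean of at least 5 FPKM, where fewer genes are tested, and at a threshold of 0.01, and 1 to 3 when 1 library was left out (1 without L-OHP library 1 or 3 or L-OHP+FUC library 1 or 2). With no filter, after GC and length correction, and with the replicate block, H1f0 was lost and the 3 variant members called higher became 2. They became 1 after GC and length correction with the replicate block. When 1 library was left out they became 1 to 3 (1 without each library other than L-OHP library 2). Of the 3′ end processing list, 9 calls became 5 with a mean of at least 5 FPKM, 4 after GC and length correction with the block, and 5 (without L-OHP+FUC library 1 or 2) to 10 when 1 library was left out. Of the chaperone list, 11 calls became 6 with no filter, 7 with the block, 4 after GC and length correction with the block, and 4 (without L-OHP library 1 or L-OHP+FUC library 2) to 11 when 1 library was left out. Of the S phase list, 2 calls became 1 with no filter, 0 with a mean of at least 5 FPKM, 4 after quantile normalization, 1 with the block with or without GC and length correction, and 1 to 4 (4 without L-OHP library 2) when 1 library was left out. The causes were not tested.

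Direction turned for 9 genes, none of them called. After quantile normalization H3c14 had a log2 fold change of 0.105, H2bc12 0.0433 and H3c4 0.155. After GC and length correction, with and without the replicate block, H3c15 had -0.0141, H3c4 0.0433, H2az1 0.0336, H3f3c 0.0586 and Pcna 0.0401, and Pcna had 0.0142 after median ratio rescaling. When 1 library was left out, H2bc8 ranged from -0.25 (without L-OHP library 2) to 0.54, H3c14 from -0.48 to 0.39 (without L-OHP+FUC library 1), H3c15 from -0.18 (without L-OHP+FUC library 2) to 0.31 and Macroh2a1 from -0.0913 (without L-OHP library 1) to 0.20. Same-numbered libraries of the 2 groups shared only a number: the correlations of their deviations were -0.04, -0.07 and 0.08, and not every library correlated best with its own number. The replicate block moved the calls over all genes from 927 higher and 2335 lower to 554 and 1762.

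With 3 libraries a group, no library without L-OHP and no read counts, precision rests on the spread between libraries alone. How the authors' counting treated reads shared between near-identical histone genes is not stated.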

Other observations

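H2ac18 and the overlapping transcript Gm20634 on chromosome 3 were above 0 in the same 2 libraries. H2ac18 measured 2.96 FPKM in L-OHP library 3 and 11.3 in L-OHP+FUC library 1, and Gm20634 measured 0.616 and 1.84, with both at 0 in the other 4 libraries. The level of H3c14, which lies within Gm20634, was the lowest of its group in both of these libraries, at 0.499 and 0.0480 FPKM.

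The 4 rows marked "-ps" were kept out of the members. H3f3a-ps1 measured 1.54, 1.86 and 1.11 FPKM with L-OHP and 1.97, 2.02 and 1.29 with L-OHP+FUC, and H3f3a-ps2 measured 0.752, 2.63 and 1.82 against 1.80, 0.941 and 1.24, both with overlapping groups. H1f11-ps and H2ac5-ps were listed at 0 in every library. The antisense row H3f3aos, which overlaps H3f3a on the other strand, measured 0.150, 0.219 and 0.184 FPKM against 0.0445, 0.234 and 0.126, with overlapping groups.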
